A study of Homo sapiens with 12 samples.

Results

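Tosedostat was added to CHR-3996 in H929 cells, a human myeloma line, and the comparison described here sets the arrays of cells that received both compounds against those of cells that received CHR-3996 only. Its members were 6 of the 12 arrays of the series, chosen by their titles: 3 Combination arrays (250 nM CHR-3996 and 1 µM tosedostat, 24 hours) and 3 CHR-3996 arrays (250 nM CHR-3996, 24 hours). The remaining arrays were 3 of cells given 1 µM tosedostat alone for 24 hours (Tosedostat) and 3 of Untreated cells. CHR-3996 was therefore present in both groups compared, and every difference below is the difference that tosedostat made in its presence, in 1 cell line and at 1 dose and time. All values are log2 expression levels from Affymetrix U133 Plus 2.0 arrays, 1 for each probe set, which is a group of probes against 1 transcript, and a difference of 1 is a 2-fold change. A probe set was called changed where limma, fitted to the 12 arrays together, gave a Benjamini-Hochberg adjusted p under 0.05 over the 36395 probe sets tested, and a gene was represented by the brightest of its tested probe sets that carry a single symbol, which gave 15587 genes. The labels call the arrays biological replicates without saying what was repeated, so the p-values measure the spread between these arrays.

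CHR-3996 blocks histone deacetylases, enzymes that take acetyl groups off histones and other proteins. Tosedostat, also named CHR-2797, blocks aminopeptidases, which cut the short peptides released by the proteasome into free amino acids for new protein, and cells short of amino acids switch on the transcription factor ATF4 and its targets, among them DDIT3 (CHOP). Myeloma cells also lean on NFκB, a family of transcription factors held inactive in the cytoplasm by inhibitors such as IκBα (NFKBIA). NFκB is released through a canonical arm and through a non-canonical arm that runs on the kinase NIK (MAP3K14), and among the genes it switches on are its own brakes, NFKBIA and TNFAIP3 (A20).

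The arrays carried a plasma cell profile. The 8 plasma cell markers all lay above the 40th percentile on every array of both groups, with gene means of 9.69 to 12.84 in the Combination group and 9.11 to 12.72 in the CHR-3996 group, whereas 2 of 5 T cell markers did so in each group. Array medians were 5.29 ± 0.02 (SD, n = 3) in the Combination group and 5.26 ± 0.02 in the CHR-3996 group, and arrays within a group correlated with one another at 0.978 to 0.983 (Pearson's r). The 3′ signal of the actin control exceeded its 5′ signal by 1.24 ± 0.15 in the Combination group and by 1.59 ± 0.17 in the CHR-3996 group, a measure of RNA length in which the groups differed. Its part in the results below was not tested. CHR-3996 replicate 1 was the lowest of the 6 arrays for 41.6% of genes, against 9.06% to 14.1% for each of the others, so results that rest on it are given with and without it. The median difference over all genes was 0.07, and 0.01 without that array.

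Tosedostat changed few genes in cells already given CHR-3996, and nearly all of them upwards. Of the 36395 probe sets, 19 were called higher (0.0522%) and 4 lower (0.0110%) in the Combination group, 0.0632% of those tested in all, and by brightest probe set 9 genes were called higher and 0 lower (0.0577% of 15587). Below the adjusted threshold the shift was wider: 2840 probe sets (7.80%) were higher and 1017 (2.79%) lower at an unadjusted p under 0.05, and the 3 Combination arrays lay wholly above the 3 CHR-3996 arrays for 10.7% of probe sets and wholly below for 4.09%. The genes called were CXCL10, ADGRE1, KLF2, NFKBIA, NFE2L3, VASH2, MAP3K14, CENPV and ADRM1. A further 7 genes, EXOSC6, EYA3, PRKAG2, NQO1, NSFL1C, PSMD1 and GPRIN3, were called by a probe set other than their brightest, and the last of these was the only one that fell. The median standard error of a log2 fold change was 0.18, so small changes could not be called at this number of arrays. With the replicate number as a block, 34 probe sets were called (0.0934%). Fits that left out Combination replicate 1, 2 or 3 called 12, 4 and 1 probe sets, of which 9, 3 and 1 were among the 23. Those that left out CHR-3996 replicate 1, 2 or 3 called 3, 16 and 1, of which 2, 9 and 1 were among the 23. By gene, the brightest probe set of NFE2L3 was called in 4 of these 6 fits. CXCL10, ADGRE1 and VASH2 were called in 2, and MAP3K14, NQO1 and NSFL1C in 1. NFKBIA, KLF2, CENPV, ADRM1, EXOSC6, EYA3, PRKAG2, PSMD1 and GPRIN3 were called in 0.

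An inhibitor of NFκB was among the genes that tosedostat raised. NFKBIA, the inhibitor that keeps NFκB in the cytoplasm, read 10.98, 10.29 and 10.45 on the Combination arrays and 9.14, 9.28 and 9.06 on the CHR-3996 arrays. The lowest Combination array was thus a full unit above the highest CHR-3996 array, and the difference was 1.41 (95% interval 0.96 to 1.87, adjusted p = 0.0479), a 2.67-fold rise. The other tested probe set of NFKBIA differed by -0.22, and NFKBIA was called in 0 of the 6 fits that left out an array of the groups compared. TNFAIP3, a ubiquitin-editing enzyme that ends NFκB signalling, gave 9.88, 10.22 and 9.80 on the Combination arrays against 7.86, 8.88 and 7.93. Its groups did not overlap either, but CHR-3996 replicate 2 stood apart above the other replicates, and the difference of 1.74 ± 0.26 (SE) stopped short of the threshold (adjusted p = 0.0596). With the replicate number as a block it was called (adjusted p = 0.0428). CYLD, a deubiquitinase that acts on the same pathway, differed by 0.33 ± 0.13 (adjusted p = 0.406), its 3 Combination values of 10.30, 10.48 and 10.36 lying just above the CHR-3996 values of 9.87, 10.23 and 10.04.

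Across the 17 measured NFκB inhibitors, 1 was called higher and 0 lower, 5 had arrays that did not overlap and were higher, against 12% of all genes, and 0 were lower. The list median was 0.19, beside 0.07 over all genes. It was 0.13 without CHR-3996 replicate 1 (0.01 over all genes) and 0.33 without CHR-3996 replicate 2 (0.12 over all genes). NFKBIZ (0.47), CYLD and COMMD1 (0.29) made up those 5 with TNFAIP3 and NFKBIA, and 16 of the 17 genes had a fold change above 0.

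A pair of probe sets that the annotation used here does not list moved still further. The study tabulated the second as BIRC3, a negative regulator of NFκB signalling, and the first stays unnamed. The first read 9.88, 9.81 and 9.64 on the Combination arrays and 7.28, 7.46 and 7.06 on the CHR-3996 arrays, a difference of 2.51 (95% interval 2.09 to 2.93, adjusted p = 0.00175), and it was the only probe set of the 23 called in each of the 12 fits that left out 1 array. The second stood at 11.82, 11.78 and 11.60 against 9.35, 9.76 and 9.35, a difference of 2.24 (1.72 to 2.77, adjusted p = 0.0164). In neither did the groups overlap.

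The kinase of the non-canonical arm rose as well. MAP3K14 read 6.88, 7.02 and 6.96 on the Combination arrays and 5.80, 6.11 and 5.56 on the CHR-3996 arrays, a difference of 1.13 (0.81 to 1.45, adjusted p = 0.0256). It was the only called member of the 18 measured subunits and upstream kinases of NFκB. RELB, the subunit of the non-canonical arm, differed by 0.72 ± 0.23 with arrays that did not overlap (5.96, 6.46 and 5.59 against 5.43, 5.48 and 4.94, adjusted p = 0.312), whereas NFKB2, its partner, differed by 0.11 and RELA by 0.13. Other NFκB target genes did not move as a body: of 27 measured, 0 were called, 4 had non-overlapping arrays that were higher and 3 that were lower (background 12% and 3.41%), and the median was 0.07, or -0.02 without CHR-3996 replicate 1. CD83, IER5 and SOD2 differed by 0.39, 0.32 and 0.30, while IER3 (-0.46), TNFRSF9 (-0.66) and PTGS2 (-1.10; 5.90, 6.10 and 5.92 against 7.07, 7.07 and 7.08) lay lower on every Combination array, none of them called.

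CXCL10, a chemokine that draws T cells and that both interferon and NFκB induce, showed the largest rise among the called genes with a single symbol. Its Combination values were 8.19, 8.60 and 8.20 and its CHR-3996 values 5.68, 5.91 and 5.52, a difference of 2.63 (1.98 to 3.28, adjusted p = 0.0164), or 6.18-fold. CXCL10 was 2.89 ± 0.51 in Untreated cells and 5.38 ± 0.53 under tosedostat alone, so the rise without CHR-3996 was 2.50, and the test of the difference between the rises gave 0.13 (adjusted p = 0.955). The Untreated values of CXCL10 (3.09, 2.31 and 3.27) lay below the 40th percentile of their arrays (4.415 to 4.47). The sizes of its rise without CHR-3996 and of the difference between the rises are therefore less certain. The level under CHR-3996 alone was 5.70 ± 0.20 and under both compounds 8.33 ± 0.24. The other 11 measured chemokines and receptors were not called. CCR10, a receptor for mucosal chemokines, differed by 0.51, CCL5 by 0.21, CCL4 by 0.02 and CXCL8 by -0.89, the last 3 with overlapping arrays.

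The 250 bases before the transcription start were searched for letters that NFκB recognises, GGGA and TTCC with any 2 bases between them, on either strand. Of 17 genes, the called ones with a single symbol and TNFAIP3, 16 had a window in the RefSeq set (build GRCh38.p14). The letters occur in NFKBIA, TNFAIP3 and CXCL10, and in 1.4% of the 35116 windows of the genome. These windows are shown because they belong to the NFκB brakes and the chemokine described above, and the capitals mark the match, whose first base lies at -81, -67 and -177 from the start.
NFKBIA, chr14:35404750-35404999, minus strand: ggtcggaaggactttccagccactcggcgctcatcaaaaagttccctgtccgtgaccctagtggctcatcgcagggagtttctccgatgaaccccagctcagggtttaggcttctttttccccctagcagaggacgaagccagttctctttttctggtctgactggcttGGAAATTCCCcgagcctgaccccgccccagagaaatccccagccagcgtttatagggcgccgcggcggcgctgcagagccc
TNFAIP3, chr6:137867009-137867258, plus strand: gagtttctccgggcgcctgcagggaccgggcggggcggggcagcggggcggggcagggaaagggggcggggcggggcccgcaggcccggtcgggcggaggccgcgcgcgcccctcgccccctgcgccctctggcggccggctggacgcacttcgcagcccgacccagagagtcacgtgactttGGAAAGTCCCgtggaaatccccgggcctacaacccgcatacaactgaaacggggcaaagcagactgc
CXCL10, chr4:76023498-76023747, minus strand: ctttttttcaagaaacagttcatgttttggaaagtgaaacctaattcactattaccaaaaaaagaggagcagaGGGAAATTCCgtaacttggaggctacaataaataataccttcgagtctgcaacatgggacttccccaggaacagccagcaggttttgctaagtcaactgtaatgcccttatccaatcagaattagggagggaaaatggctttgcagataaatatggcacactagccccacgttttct
MAP3K14, KLF2, NFE2L3 and VASH2 do not hold these letters in this window. CXCL10 also holds TTTC, any 2 bases and TTTC again, the core of the element bound by interferon-induced factors, which is found in 3.02% of windows. A match of letters is a description and not a site shown to be used.

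**Figure D1:**
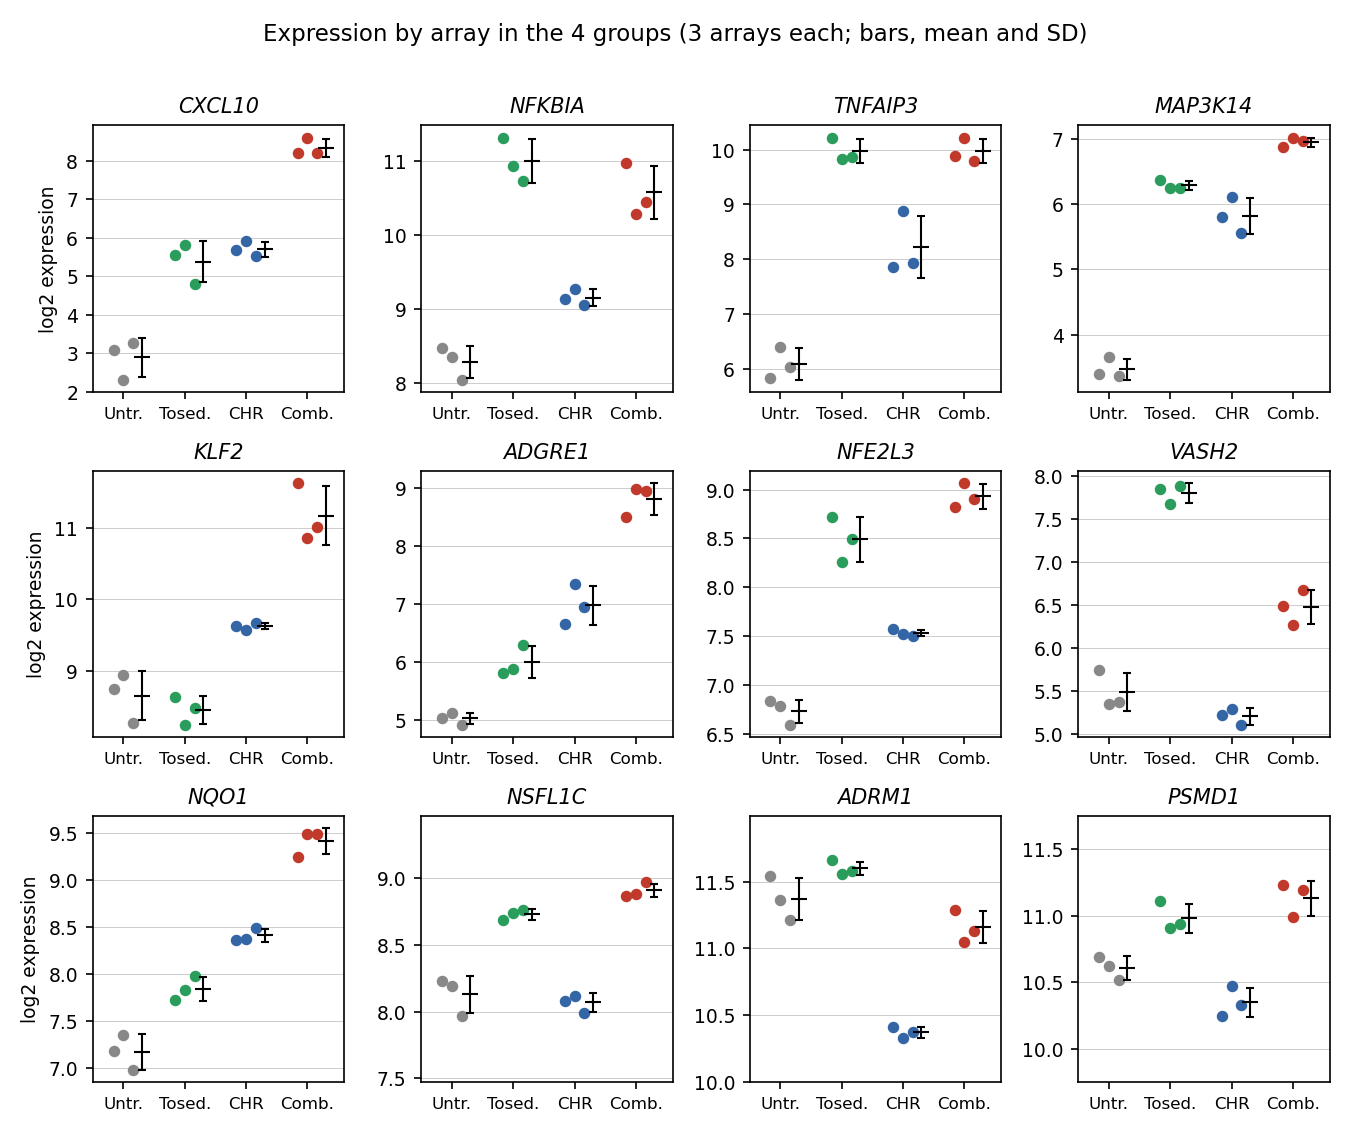
Log2 expression (vertical axes) of 12 genes on each of the 12 arrays, in Untreated (Untr.), Tosedostat (Tosed.), CHR-3996 (CHR) and Combination (Comb.) cells; points are arrays in replicate order, and bars give the group mean and SD (n = 3). In all 12 genes the 3 Combination arrays lie above the 3 CHR-3996 arrays, by 2.63 on average for CXCL10 and by 0.78 for PSMD1, which, like NQO1 and NSFL1C, is drawn from the probe set that was called.

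KLF2, a zinc-finger factor that restrains inflammatory gene expression, rose in the presence of CHR-3996 but was not called in its absence. It read 11.63, 10.86 and 11.01 on the Combination arrays and 9.62, 9.57 and 9.66 on the CHR-3996 arrays, a difference of 1.55 (1.07 to 2.03, adjusted p = 0.0469). Under tosedostat alone it was 8.45 ± 0.20 against 8.65 ± 0.34 in Untreated cells, a difference of -0.20 (adjusted p = 0.733), and the test of the difference between both effects gave 1.75 with an adjusted p of 0.0555, and of 0.0417 with the replicate number as a block, which passed. Combination replicate 1 was the highest array, and KLF2 was called in 0 of the 6 fits that left out an array of the groups compared. KLF2 was the only called member of the 22 AP-1 and early growth response factors, of which 4 were higher and 3 lower on arrays that did not overlap (background 12% and 3.41%). KLF4 (0.61), JUNB (0.46) and KLF6 (0.35) were the others above, and EGR1 (-0.80) the largest of those below.

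ADGRE1, an adhesion receptor best known from macrophages, stood at 8.50, 8.99 and 8.95 against 6.66, 7.34 and 6.95, a difference of 1.83 (1.39 to 2.28, adjusted p = 0.0164), and each Combination array exceeded each CHR-3996 array by more than a unit. Of the 6 monocyte and macrophage markers, 3 lay above the 40th percentile on all Combination arrays and 2 on all CHR-3996 arrays, none of the 6 was at 0, and their summed level was 25.64 to 31.23 on the Combination arrays and 26.54 to 30.9 on the CHR-3996 arrays. Of the 4 that passed the filter, S100A8 and FCGR1A lay higher on arrays that did not overlap (0.45 and 0.51, background 12% of genes). CSF1R and LYZ differed by 0.17 and 0.01, and none of the 4 was called. The part of such cells in the ADGRE1 result was not tested. VASH2, a secreted promoter of vessel growth and a tubulin carboxypeptidase, was 6.49, 6.27 and 6.67 against 5.22, 5.30 and 5.11, a difference of 1.27 (0.95 to 1.59, adjusted p = 0.0164), with -0.14 for its other probe set. CENPV, a protein of the centromere, rose by 0.80 (7.11, 7.11 and 7.08 against 6.39, 6.28 and 6.23, adjusted p = 0.0256), with 0.49 for its other probe set. EXOSC6, a subunit of the RNA exosome, was called at 1.16 (adjusted p = 0.0256) by 1 of its 3 probe sets, the others being near 0, and EYA3 at 1.12 by 1 of 4. PRKAG2, a regulatory subunit of the energy sensor AMPK, was called at 1.05 by 1 of 4 probe sets, and GPRIN3 at -1.06 by 1 of 5. With the replicate number as a block EXOSC6 was no longer called (adjusted p = 0.0514).

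NFE2L3, a cap'n'collar factor related to the regulators of proteasome and antioxidant genes, was the only gene called by more than 1 probe set. Its brightest probe set read 8.82, 9.07 and 8.90 on the Combination arrays and 7.57, 7.52 and 7.50 on the CHR-3996 arrays, a difference of 1.40 (1.11 to 1.70, adjusted p = 0.00943), and the other differed by 1.32 (adjusted p = 0.0256). Both probe sets of the gene thus rose by a similar amount. NFE2L3 was 6.73 ± 0.12 in Untreated cells and 8.49 ± 0.23 under tosedostat alone, a rise of 1.75. Its relatives NFE2L1 and NFE2L2 were not called, with differences of 0.18 to 0.29 over 3 probe sets and of 0.10 to 0.19 over 2.

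Proteasome genes lay higher by a small amount. Of the 41 measured subunits and assembly factors, 0 were called by the brightest probe set, 18 had arrays that did not overlap and were higher (background 12%) and 1 was lower, and the list median was 0.24 beside 0.07 over all genes. The differences of single genes of this list ran from -0.22 (PSMG4) to 0.52 (PSMC4 and PSMC3). Higher values covered the base of the regulatory particle (PSMC3, PSMC4), its lid (PSMD11, 0.50; PSMD14, 0.47; PSMD12, 0.43) and the catalytic core (PSMB7, 0.50; PSMB2, 0.47; PSMB6, 0.38). ADRM1, a ubiquitin receptor of the proteasome that the list does not include, was called at 0.79 (11.29, 11.05 and 11.13 against 10.41, 10.33 and 10.37, adjusted p = 0.0479). PSMD1, a scaffold of the regulatory particle, was called at 0.78 by 1 probe set (adjusted p = 0.0479, and 0.0592 with the replicate number as a block), its brightest giving 0.40. NSFL1C, a cofactor of the unfoldase VCP, was called at 0.84 by 1 of 6 probe sets (8.87, 8.88 and 8.97 against 8.08, 8.12 and 7.99, adjusted p = 0.0239), the others reaching down to -0.49, and VCP itself differed by 0.49 and 0.55 in 2 probe sets that were not called. CHR-3996 replicate 1 was the lowest of the 6 arrays for 37 of the 41 genes, and without it the proteasome median was 0.12 beside 0.01 over all genes. Under tosedostat alone the proteasome median was 0.20, with 31 of 41 genes on arrays that lay wholly above those of Untreated cells (background 20.1% above, 9.16% below) and 0 called.

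The ADRM1 window is shown because it holds TGACNNNGC, letters bound by the cap'n'collar factors. They occur on either strand in 6 of the 16 genes, which have 21 windows between them, and in 10.9% of all windows. The other holders are CXCL10, NFKBIA, ADGRE1, EYA3 and PRKAG2, whereas NQO1, PSMD1, NSFL1C and NFE2L3 do not hold the letters. The capitals mark the match in ADRM1, whose first base lies at -137 from the start.
ADRM1, chr20:62302646-62302895, plus strand: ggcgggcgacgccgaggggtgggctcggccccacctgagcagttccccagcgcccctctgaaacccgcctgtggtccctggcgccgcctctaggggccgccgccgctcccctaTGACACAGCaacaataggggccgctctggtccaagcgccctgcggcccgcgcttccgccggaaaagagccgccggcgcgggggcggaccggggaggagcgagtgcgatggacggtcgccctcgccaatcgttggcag

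Antioxidant and glutathione genes showed the same direction. Of the 19 measured, 12 had arrays that did not overlap and were higher and 0 were lower (background 12% and 3.41%), the median was 0.31, and it was 0.28 without CHR-3996 replicate 1. By brightest probe set none was called. NQO1, a quinone reductase, was called at 1.00 (9.24, 9.49 and 9.49 against 8.36, 8.37 and 8.49, adjusted p = 0.0256) by 1 of 3 probe sets, the others giving 0.83 and 1.10. HMOX1, which breaks down haem, differed by 1.14 ± 0.32 (11.09, 11.80 and 10.98 against 9.83, 10.41 and 10.21, adjusted p = 0.267). The glutathione-synthesis subunits GCLM and GCLC differed by 0.37 and 0.30, and the thioredoxin-system genes SRXN1, PRDX1 and TXNRD1 by 0.48, 0.47 and 0.31. NFE2L2, the main activator of this group, differed by 0.10 on overlapping arrays, and the cystine carrier SLC7A11 by 0.02.

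Genes of the amino acid response were called under tosedostat alone, and none was called when tosedostat was added to CHR-3996. Of 29 measured targets of ATF4 and CHOP, 13 were called higher and 1 lower under tosedostat alone (background 4.25% and 0.545% of genes), with a median of 0.59. When tosedostat was added to CHR-3996, 0 were called, 4 had non-overlapping arrays that were higher (background 12%), and the median was 0.01. It was -0.15 and 0.17 without CHR-3996 replicates 1 and 2. DDIT3, the pro-apoptotic factor CHOP, rose by 2.02 under tosedostat alone (adjusted p = 0.000194), from a mean of 6.97 in Untreated cells. In the presence of CHR-3996 it was 10.41, 10.89 and 10.80 without tosedostat and 10.53, 10.49 and 10.06 with it, a difference of -0.34 (adjusted p = 0.537). The interaction, which is the change in the presence of CHR-3996 minus the change in its absence on the log2 scale, was -2.36 (adjusted p = 0.00538). ATF3, a stress-induced repressor, behaved alike (1.52 alone, -0.16 added, interaction adjusted p = 0.0203), as did SESN2, an inhibitor of mTORC1 (1.89 and -0.06, adjusted p = 0.0127), and CTH, which makes cysteine (2.26 and 0.08, adjusted p = 0.0288). The other ATF3 probe set differed by -0.03 under tosedostat alone and gave an interaction of -0.07. In CHR-3996 cells the means were already 10.70 for DDIT3, 11.86 for ATF3 and 9.66 for CTH, against 6.97, 7.99 and 8.09 in Untreated cells. CBS, the enzyme before CTH, was also called in the interaction at -1.52. Outside these lists GTPBP2 was called at -1.83 and INHBE, an activin subunit, at -2.93 (10.43 ± 0.27 in Combination, 10.34 ± 0.53 in CHR-3996, 11.14 ± 0.09 in Tosedostat and 8.12 ± 0.09 in Untreated cells). CHAC1, a glutathione-degrading enzyme, had a smaller difference when tosedostat was added (2.74 alone, 0.59 added, interaction adjusted p = 0.0532, and 0.0362 with the replicate number as a block). The 22 amino acid transporters and 22 enzymes of amino acid and one-carbon synthesis had medians of 0.07 and 0.11 when tosedostat was added, and 0 of either list were called. Without CHR-3996 replicate 1 these medians were -0.05 and -0.03. Among the targets of the drug itself, 25 aminopeptidases and dipeptidases, 0 were called. On arrays that did not overlap 2 were higher (DNPEP, 0.33, and AOPEP, 0.34), against a background of 12%. The median was 0.04, or -0.03 without CHR-3996 replicate 1.

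Class II MHC genes, which present peptides to helper T cells, included the largest called interaction of any gene. Under tosedostat alone 7 of 12 were called higher (background 4.25%), with a median of 2.01. When tosedostat was added to CHR-3996 all 12 had a difference above 0 and 7 had non-overlapping arrays that were higher (background 12%), but 0 were called and the median was 0.48. HLA-DRA read 8.42, 9.42 and 9.55 on the Combination arrays against 6.92, 7.82 and 7.87, a difference of 1.60 ± 0.40 (adjusted p = 0.223), and HLA-DQA1 differed by 1.57 ± 0.35 (adjusted p = 0.179). HLA-DPB1 was 3.42 in Untreated, 7.83 in Tosedostat, 9.43 in CHR-3996 and 9.92 in Combination cells, so tosedostat made a difference of 4.40 alone and 0.49 when added, and the interaction was -3.92 (adjusted p = 0.00287). Its Untreated values (3.48, 3.20 and 3.59) lay below the 40th percentile of their arrays (4.415 to 4.47). The sizes of its change alone and of its interaction are therefore less certain. The interaction was called in the same direction for HLA-DPA1 (-3.48), HLA-DQB1 (-2.77) and HLA-DMA (-1.92). HLA-DPA1 was called by 1 of 3 probe sets, the others giving -0.04 and -0.39, and HLA-DQB1 by 5 of 6. CD74, the invariant chain, and CIITA, the transactivator of the class, differed by 0.12 and 0.11 and were not called in either contrast.

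Of 26 measured interferon-response genes, 12 were called higher under tosedostat alone (background 4.25%), with a median of 0.67. When it was added 0 were called and the median was -0.07, or -0.11 without CHR-3996 replicate 1. The interaction was called lower for 3 of the 26, IFIT2, IFIT3 and IFIH1 (background 0.244% of genes). IFIT2, an RNA-binding effector, was 6.45, 6.19 and 6.42 on the Combination arrays and 5.93, 5.15 and 5.33 on the CHR-3996 arrays, a difference of 0.88 ± 0.28 (adjusted p = 0.316) beside 4.55 alone, with an interaction of -3.67 (adjusted p = 0.00552). Its Untreated values (2.46, 2.79 and 3.33) lay below the 40th percentile of their arrays (4.415 to 4.47). The sizes of its change alone and of its interaction are therefore less certain. IFIT3 differed by 0.26 beside 3.90 (interaction -3.63, adjusted p = 0.0170), and IFIH1, a sensor of viral RNA, by 0.09 beside 1.85 (interaction -1.76, adjusted p = 0.0108).

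**Figure D2:**
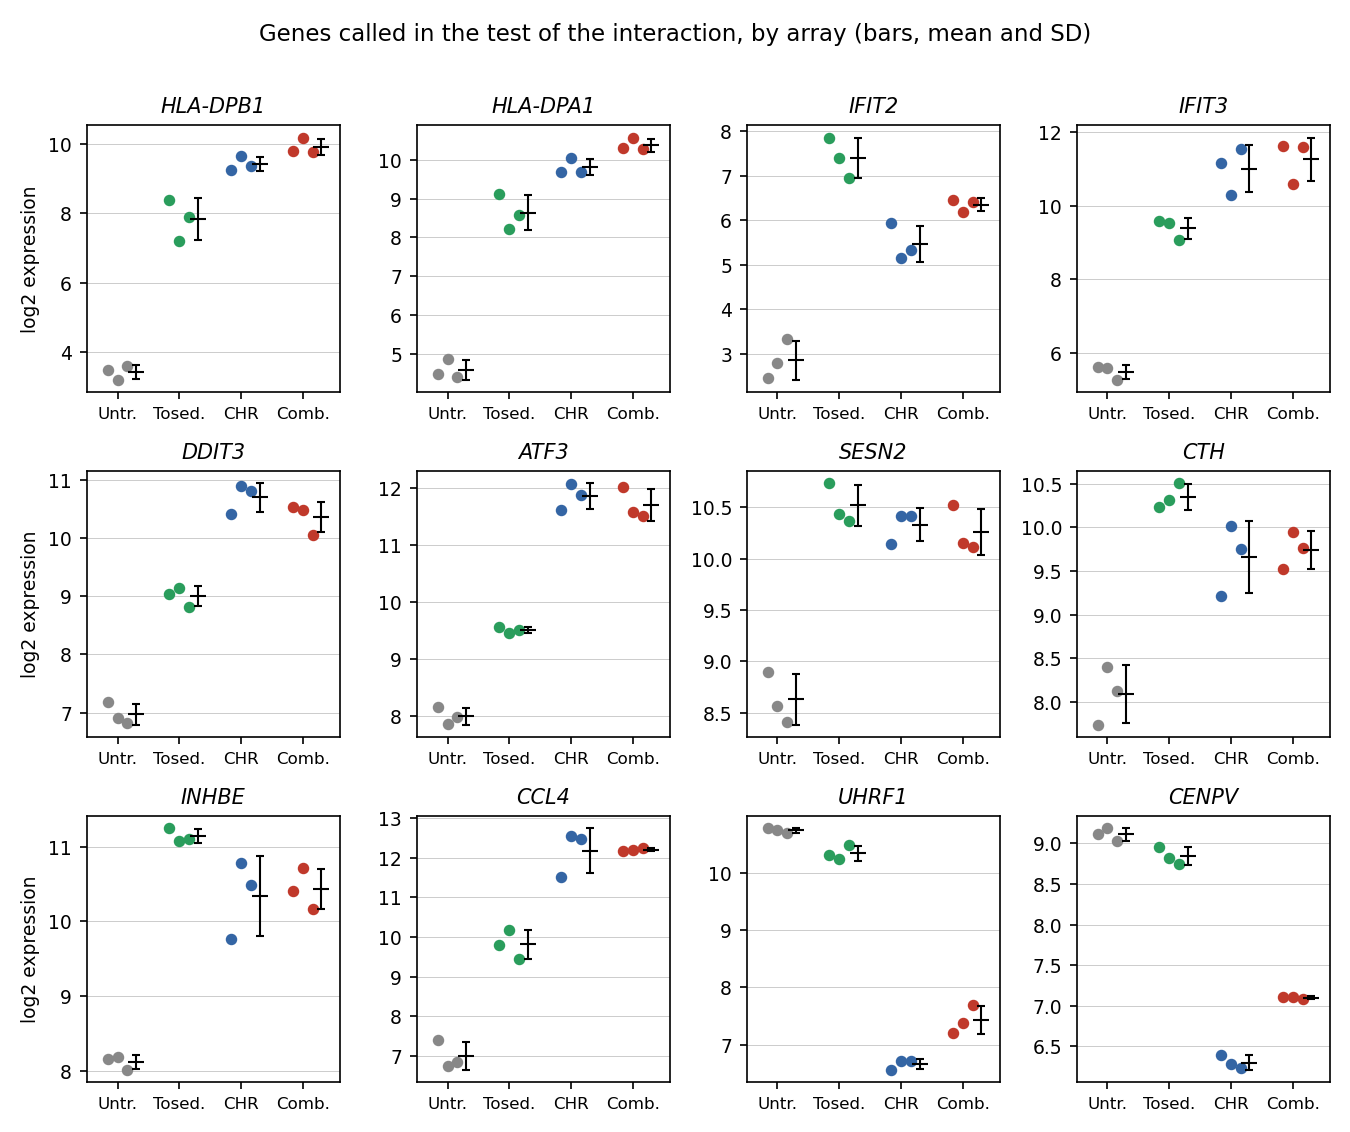
Log2 expression (vertical axes) of 12 genes whose tosedostat change differed with and without CHR-3996, on each of the 12 arrays; groups, points and bars are as in the plot of called genes. The first 10 genes rise from Untreated to Tosedostat by 1.52 to 4.55 and differ by -0.34 to 0.88 between CHR-3996 and Combination, whereas UHRF1 and CENPV differ by -0.40 and -0.27 and then by 0.77 and 0.80.

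Over all probe sets the interaction was called for 75, 0.206% of those tested. The tosedostat change was lower in the presence of CHR-3996 for 67 of them (0.184%) and higher for 8 (0.0220%), and by gene 43 were called (0.276%), 38 lower (0.244%) and 5 higher (0.0321%). Tosedostat alone called 1338 probe sets (3.68%), 1174 higher (3.23%) and 164 lower (0.451%), or 4.80% of genes. With the replicate number as a block the counts were 231 for the interaction and 2309 for tosedostat alone. Of the 67, 66 had been called higher under tosedostat alone and 3 were called in the Combination against CHR-3996. Those 3 were MAP3K14 (2.82 alone, 1.13 added, interaction -1.69, adjusted p = 0.0127), the BIRC3 probe set described above (5.66 and 2.24, -3.42, adjusted p = 0.00356) and 1 unnamed probe set. The last fell (-1.13 added, 0.37 alone). The Untreated values of MAP3K14 (3.39, 3.66 and 3.36) lay below the 40th percentile of their arrays (4.415 to 4.47). Those of the unnamed probe set (4.19, 4.31 and 4.25) did so too. The sizes of their changes alone and of their interactions are therefore less certain. The 2 pairs of groups share no array, and each contrast is given with its own values, but the interaction is computed from both. A high change under tosedostat alone lowers it, so the overlap of 66 is partly built in and is no separate result. The 663 genes called higher under tosedostat alone had a median change of 0.85 there, the contrast that chose them, and of 0.22 when tosedostat was added. Of these genes 544 (82.1%) had a difference above 0 when it was added, where the median of all genes was itself above 0, at 0.07. Of the 663, 235 (35.4%) had non-overlapping arrays that were higher, against 12% of all genes. Of the 85 genes called lower alone, 49 (57.6%) differed in the same direction and 11 (12.9%) had non-overlapping arrays that were lower, against 3.41%. Across the 15587 genes, which are not independent of one another, the log2 fold changes of both contrasts correlated at r = 0.20 (Pearson) and 0.17 (Spearman), and their SD was 0.27 when added and 0.39 alone. Of the 9 genes called when tosedostat was added, 6 were also called higher under tosedostat alone, and KLF2, CENPV and ADRM1 were not.

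**Figure D3:**
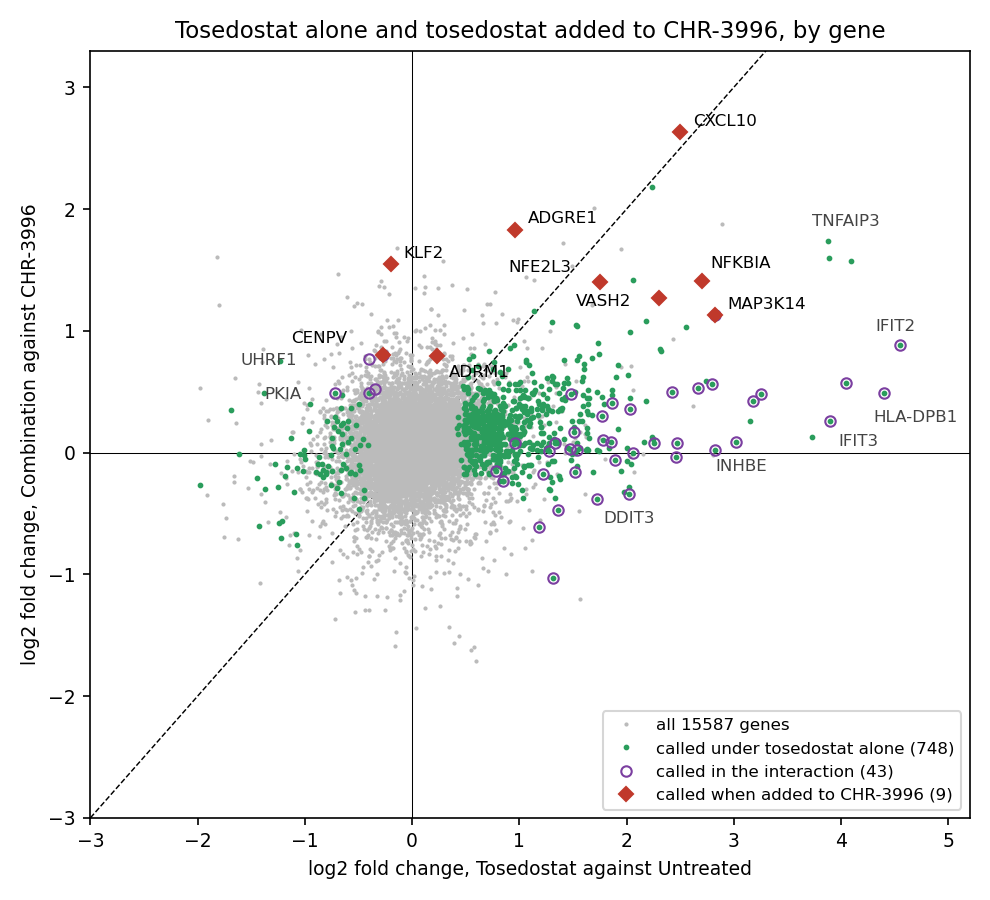
Log2 fold change of each of 15587 genes under tosedostat alone (Tosedostat against Untreated, horizontal axis) and when tosedostat was added to CHR-3996 (Combination against CHR-3996, vertical axis), with the line of equal change dashed. The 748 genes called alone (green) and the 43 called in the interaction (circles) stretch along the horizontal axis, and of the 9 genes called when it was added (diamonds) CXCL10 lies near the dashed line and KLF2 near the vertical axis.

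Genes of cell division differed in opposite directions in both settings, without a call in the lists. Of 37 DNA replication genes, 34 were higher in all 3 same-numbered pairs of Combination and CHR-3996 arrays, against 26.7% of all genes (9.69% were lower in all 3), 12 had arrays that did not overlap and were higher (background 12%), and the median was 0.43. Under tosedostat alone 25 of the 37 were lower in all 3 pairs (background 19.9% lower, 34.3% higher), with a median of -0.15. LIG1, the ligase that seals Okazaki fragments, read 7.62, 7.71 and 8.01 against 6.82, 6.84 and 7.27, a difference of 0.80 ± 0.16 (adjusted p = 0.152), and POLA2, GINS2, GINS4 and POLD1, parts of the polymerases and the replicative helicase, differed by 0.70, 0.71, 0.65 and 0.57. Of 32 mitosis genes, 29 were higher in all 3 pairs with a median of 0.39, but 1 had arrays that did not overlap and was higher, and under tosedostat alone 31 were lower in all 3 pairs with a median of -0.47 (background 19.9%). CDK1, the kinase that starts mitosis, was 10.38, 10.86 and 11.37 against 9.82, 10.60 and 10.82, so that replicate 1 was the lowest array of both groups and the groups overlapped (adjusted p = 0.606). PLK1 was the exception among mitosis genes, with a difference of -0.39. CHR-3996 replicate 1 was the lowest of the 6 arrays for 33 of the 37 replication and 30 of the 32 mitosis genes. Without it the replication median was 0.28 and the mitosis median 0.09, and without Combination replicate 3 they were 0.31 and 0.19.

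No member of the replication and mitosis lists was called in the interaction. By brightest probe set 5 genes, all outside those lists, had a called tosedostat change that was higher in the presence of CHR-3996. UHRF1, which carries DNA methylation through replication, was 7.43 ± 0.25 in Combination and 6.66 ± 0.09 in CHR-3996 cells, 10.34 ± 0.13 in Tosedostat and 10.74 ± 0.04 in Untreated cells, with an interaction of 1.17 (adjusted p = 0.0424). DONSON, a helicase-loading factor, had an interaction of 0.86 (adjusted p = 0.0424), CENPV of 1.08 (adjusted p = 0.0180), KIF26A, a kinesin, of 0.89 (adjusted p = 0.0317) and PKIA, an inhibitor of protein kinase A, of 1.21 (adjusted p = 0.0379). Each of these 5 genes had a difference below 0 under tosedostat alone and above 0 when tosedostat was added. They remained well below their Untreated level in Combination cells except PKIA, which was 9.63 there and 6.83 in Untreated cells.

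Folding genes and mitochondrial ribosomal proteins lay slightly higher. Of 27 genes of the unfolded protein response and folding in the endoplasmic reticulum, 6 were higher on arrays that did not overlap (background 12%), among them the chaperone HSP90B1 (0.44). Their median was 0.13, and 0.04 without CHR-3996 replicate 1 and 0.06 without Combination replicate 1. All 40 mitochondrial ribosomal proteins had a difference above 0, 11 of them on arrays that did not overlap (background 12%), with a median of 0.21 that became 0.07 without CHR-3996 replicate 1, the lowest array for 38 of them. Of the 40 genes of oxidative phosphorylation, 37 had a difference above 0. Their median was 0.07, as over all genes, and 4 were higher on arrays that did not overlap (background 12%). Without CHR-3996 replicate 1, the lowest array for 38 of these 40, that median was -0.00. In the 23 genes of cholesterol synthesis and uptake, 7 were higher on arrays that did not overlap (background 12%) and the median was 0.21, which became 0.06 without Combination replicate 1 and 0.10 without CHR-3996 replicate 1, with INSIG1 (0.52), NSDHL (0.42) and SQLE (0.40) above and the regulator SREBF2 at -0.52. The 13 pro-apoptotic and 10 anti-apoptotic members of the BCL2 and inhibitor-of-apoptosis families had medians of 0.12 and 0.03 with 0 called, and 13 caspases and apoptosome genes a median of 0.06. Without CHR-3996 replicate 1 these were 0.02, -0.02 and -0.01. In all, 4 of the 843 genes measured in the 39 lists were called when tosedostat was added, namely NFKBIA, MAP3K14, CXCL10 and KLF2. Over all genes 9 of 15587 were called (0.0577%), and the lists were chosen with earlier results of these data known.

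**Figure D4:**
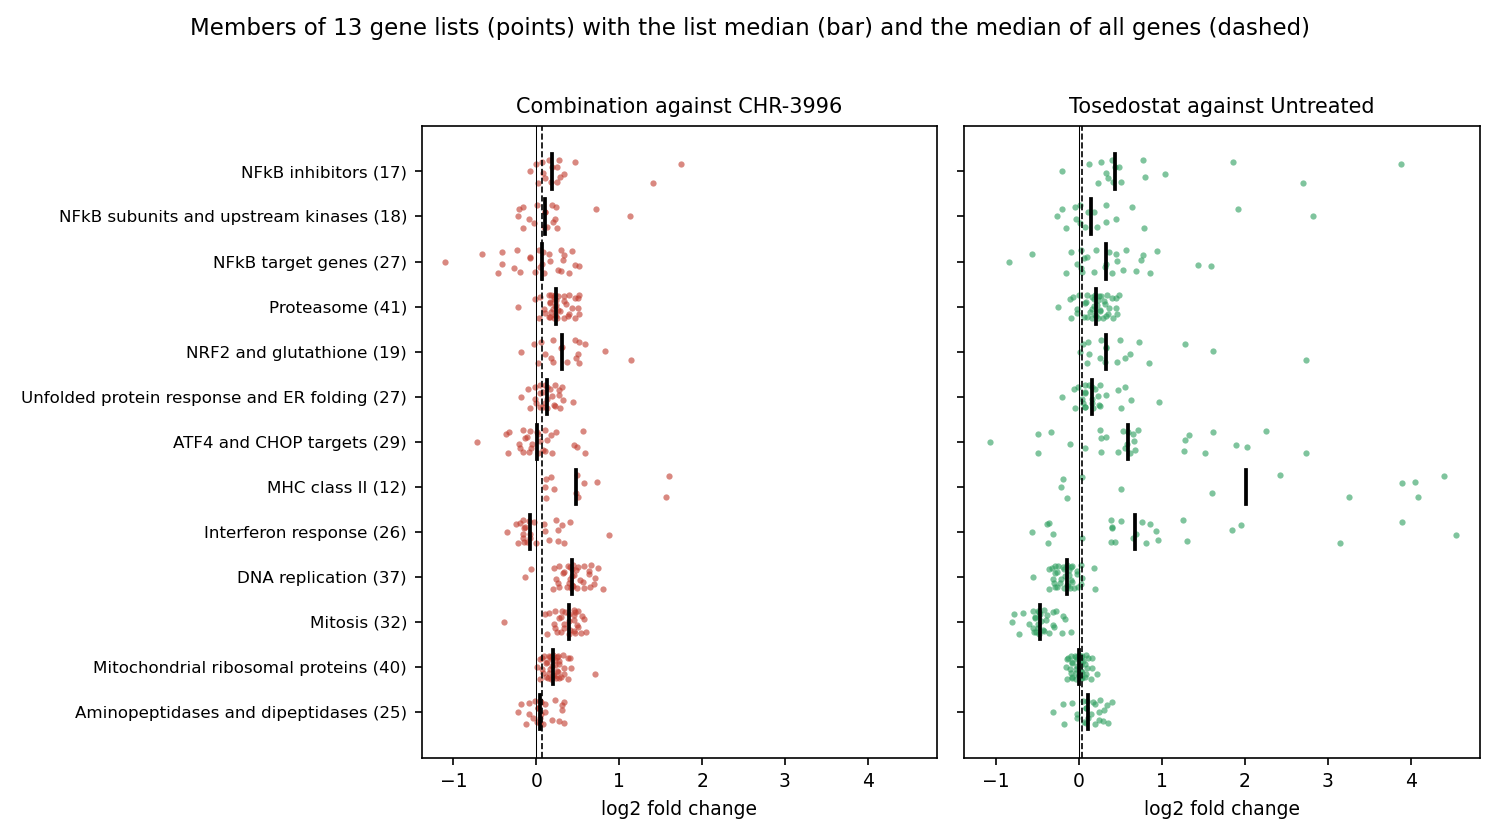
Log2 fold changes (horizontal axes) of the measured members of 13 gene lists, with the number of members in brackets, for Combination against CHR-3996 (left) and Tosedostat against Untreated (right); each point is a gene, the bar is the list median, and the dashed line is the median of all genes (0.07 and 0.04). The medians of ATF4 and CHOP targets, MHC class II and interferon-response genes are 0.01, 0.48 and -0.07 on the left and 0.59, 2.01 and 0.67 on the right, and those of DNA replication and mitosis are 0.43 and 0.39 on the left and -0.15 and -0.47 on the right.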

How the data were processed

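Per the labels, RNA of H929 cells was measured on 12 Affymetrix U133 Plus 2.0 arrays. The authors labelled the RNA in 2 cycles, normalized the scans in dChip and deposited log2 values for 54675 probe sets. That scale follows from the values themselves. For the dChip version and probe summary, these were not given in the sources used here. Exact zeros number 1141 to 1344 per array.

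After 62 control probe sets were removed, a probe set was kept where it exceeded its array's 40th percentile on 3 arrays or more, without renormalization. limma 3.58.1 (R 4.3.3) fitted 1 term per group and tested Combination against CHR-3996, Tosedostat against Untreated and their difference, with Benjamini-Hochberg adjustment in each. The procedure was checked on simulated data. Of the 36395 kept, 29161 have 1 symbol in the platform annotation, 1365 several and 5869 none. The number of arrays limits the precision.

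Genes were named by rule: the 10 highest and 10 lowest called changes, the 5 highest and 5 lowest called interactions, those NFκB regulators tabulated by the study that have a symbol in this annotation, and called members of 39 lists. Genes called by a dimmer probe set, and further interaction genes, were added after their values were seen. The comparison, lists and rule were chosen with earlier results of these data known. Residuals of arrays with the same replicate number correlated at 0.28, 0.274 and 0.179 between Combination and CHR-3996, and at 0.126, 0.288 and 0.183 between Tosedostat and Untreated. No label says what the numbers mark. The main fit did not pair the arrays, and a fit with the replicate number as a block was run beside it. Alternatives were the replicate block, quantile normalization, equal medians, other filters, a variance trend, the 6 compared arrays, the methods' criteria and leaving out each array. Promoter windows came from RefSeq.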

Additional observations from a re-analysis of the deposited data

Results flagged for a closer look

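The test of the interaction passed for the genes below, whose change under tosedostat differed between cells with and without CHR-3996 (change with minus change without, log2 scale, limma adjusted p under 0.05). Among class II MHC genes the values were -3.92 for HLA-DPB1, -3.48 for HLA-DPA1, -2.77 for HLA-DQB1 and -1.92 for HLA-DMA. Interferon-response genes gave -3.67 for IFIT2, -3.63 for IFIT3 and -1.76 for IFIH1. In the lists of ATF4 and CHOP targets and of amino acid synthesis they were -2.36 for DDIT3, -2.17 for CTH, -1.95 for SESN2, -1.67 for ATF3 and -1.52 for CBS. INHBE (-2.93), GTPBP2 (-1.83) and SAMD9L (-1.69) lie outside the lists. The chemokine CCL4 (-2.80), the prostaglandin receptor PTGER4 (-2.39), KLHL5 (-2.76), the autophagy receptor SQSTM1 (-1.0) and the kinase MAP3K14 (-1.69) also passed. So did the probe set that the study tabulated as BIRC3 (-3.42), which the annotation does not list and which was called in both contrasts. In the other direction stood PKIA (1.21), UHRF1 (1.17), CENPV (1.08), KIF26A (0.89) and DONSON (0.86). Not every probe set of these genes passed. HLA-DQB1 was called by 5 of 6, KLHL5 by 3 of 4, HLA-DPA1 and IFIH1 by 1 of 3 and SQSTM1 by 1 of 5. IFIT3, ATF3, CTH, CBS, GTPBP2, SAMD9L, PKIA, CENPV and KIF26A were each called by 1 of 2. Levels in CHR-3996 cells were already above those in Tosedostat cells for HLA-DPB1, HLA-DPA1, HLA-DQB1, HLA-DMA, IFIT3, DDIT3, ATF3, GTPBP2, CCL4, PTGER4 and KLHL5, and below them for IFIT2, INHBE, CTH, SESN2, CBS and MAP3K14. The part of these starting levels in the differences was not tested. On each Untreated array HLA-DPB1, IFIT2 and MAP3K14 lay below the 40th percentile, so the sizes of their interactions are less certain.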

How the results depend on the processing

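The count of 23 calls in Combination against CHR-3996 became 15 with every array at the same median, 6 with no filter, 43 with a filter at the 60th percentile, 87 with a variance trend and robust estimation and 3 on the 6 arrays compared alone. It was 30 after quantile normalization, 34 with the replicate block, 22 under the methods' criteria, 10 of them among the 23 (0 after Benjamini-Hochberg adjustment) and 19 where a 2-fold change was also required. Leaving out an array gave 1 to 16, the Tosedostat and Untreated arrays included, the latter being a choice made after seeing the data. The 75 interaction calls became 166 after quantile normalization, 22 with no filter, 224 with the stricter filter, 231 with the replicate block and 245 with the trend, and 22 to 84 with an array left out. For Tosedostat against Untreated, 1338 calls became 686 with no filter, 2309 with the replicate block and 682 on the 6 arrays alone, and 618 to 1049 with an array left out. The 4 called list members became 2 with equal medians, 0 with no filter, 11 with the trend and 1 on 6 arrays, and 0 to 3 with an array left out. The cause of these moves was not tested, other than that no filter tests more probe sets and that 6 arrays or a left-out array give fewer degrees of freedom. The block kept 19 of the 23 calls, gained 15, TNFAIP3 among them, and lost EXOSC6, PSMD1 and 2 probe sets without a symbol. None of the 25 changes and 10 interactions of single probe sets recomputed under these settings reversed its sign, whereas CCL4 and CBS, both at 0.02 when tosedostat was added, were -0.09 and -0.07 after quantile normalization. Quantile normalization moved the median over probe sets from 0.06 to -0.01. The arrays number 3 a group, and a dim signal near the floor gives a less certain fold.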
